A study of Mus musculus with 11 samples.

Results

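The effect of losing 1 copy of Inpp5d on microglia that still have Tyrobp was measured by comparing Inpp5d+/-;NLGF with NLGF mice. The comparison takes every library labelled with those genotypes, 3 and 3, which is 6 of the 11 libraries in the series. Its members are the 20390 genes with enough counts to test, out of 55401 rows in the deposited table. NLGF is an App knock-in line that carries the Swedish, Iberian and Arctic mutations under the mouse App promoter and forms amyloid plaques, and all mice compared carry it. The NLGF group has no other labelled change, the Inpp5d+/-;NLGF group is heterozygous for Inpp5d in addition (the heterozygotes below), and neither group carries a labelled Tyrobp change. All mice were C57BL/6 and 9 to 10 months old. The cells sequenced were live CD11b+/CD45+ cells from brain, a gate that CD45+ myeloid cells other than microglia also pass. The other 5 libraries, 2 of Tyrobp-/-;NLGF and 3 of Tyrobp-/-;Inpp5d+/-;NLGF, entered the estimate of spread and are quoted where they bear on a gene.

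Inpp5d encodes SHIP1, a phosphatase of blood cells and microglia that removes the 5-phosphate from the lipid PIP3 and so lowers the membrane signal made by PI3K. SHIP1 is recruited by inhibitory receptors and by adaptors of activating receptors, and it restrains signalling from TREM2 through DAP12, the adaptor encoded by Tyrobp. TREM2 signalling is needed for microglia at plaques to enter the disease-associated state (DAM), in which homeostatic genes are lowered and genes of lipid handling, phagocytosis and lysosomes are raised. Human variants near INPP5D are associated with risk of Alzheimer's disease.

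The 6 libraries held 29490567 to 66637052 counts and detected 20203 to 22582 genes. Levels are given in CPM, the usual unit of counts relative to library size, after TMM scaling, and the limit that 3 counts set was 0.0477 to 0.1 CPM. Summed CPM of 10 microglial marker genes was 42600 to 49100 in NLGF and 44800 to 45400 in the heterozygotes, and all 10 markers were detected, so markers of the labelled cell type were present in both groups. NLGF replicate 1 correlated more with the heterozygotes than with its own group. Across 10395 genes, the Spearman correlation was 0.949 between NLGF replicates 2 and 3 and 0.942 to 0.946 among the heterozygotes. That of NLGF replicate 1 was near those values with its group, at 0.941 and 0.944. With the 3 heterozygous libraries that of NLGF replicate 1 was higher, at 0.956 to 0.958. That correlation is across genes, which are not independent replicates, and it describes these libraries only. Where leaving out this library, or another one, moved the log2 fold change of a named gene by over 1.5 times, the value without it, or the lowest and highest where several libraries did so, is given beside that gene.

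The targeted gene itself separated the groups only in part. Inpp5d (ENSMUSG00000026288.14; chromosome 1, 87620312 to 87720507) was at 436, 205 and 313 CPM in the NLGF libraries and at 280, 219 and 191 CPM in the heterozygous libraries. The groups overlapped: NLGF replicate 2 lay below 2 of the 3 heterozygous libraries, and NLGF replicate 1 had the highest level of the 6. The heterozygous mean was 72.3% of the NLGF mean, a log2 fold change of -0.47 (SE 0.25) with a 95% interval of -1.03 to 0.10, and the edgeR quasi-likelihood test with Benjamini-Hochberg adjustment gave an adjusted p of 0.952. As a share of the NLGF level the interval ran from 48.8% to 107%, which includes no difference. An exact two-sided permutation test over the 6 libraries gave p = 0.3, where 0.1 is the smallest value that 20 arrangements allow. In the absence of Tyrobp the same heterozygosity gave 52.7% of the level, with 449 and 447 CPM in Tyrobp-/-;NLGF against 190, 260 and 260 CPM in Tyrobp-/-;Inpp5d+/-;NLGF. That log2 fold change, -0.92, had an unadjusted p of 0.00804 in edgeR's test. It rests on 2 Tyrobp-/-;NLGF libraries and did not reach an adjusted p under 0.05. The interaction, which tests whether the Inpp5d effect differs between the Tyrobp backgrounds, reached an adjusted p under 0.05 for 0 of 20390 genes (0%) in edgeR's test, and 958 (4.7%) had an unadjusted p under 0.05. Without NLGF replicate 1 the Inpp5d log2 fold change was -0.17, and without NLGF replicate 2 it was -0.70.

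**Figure D1:**
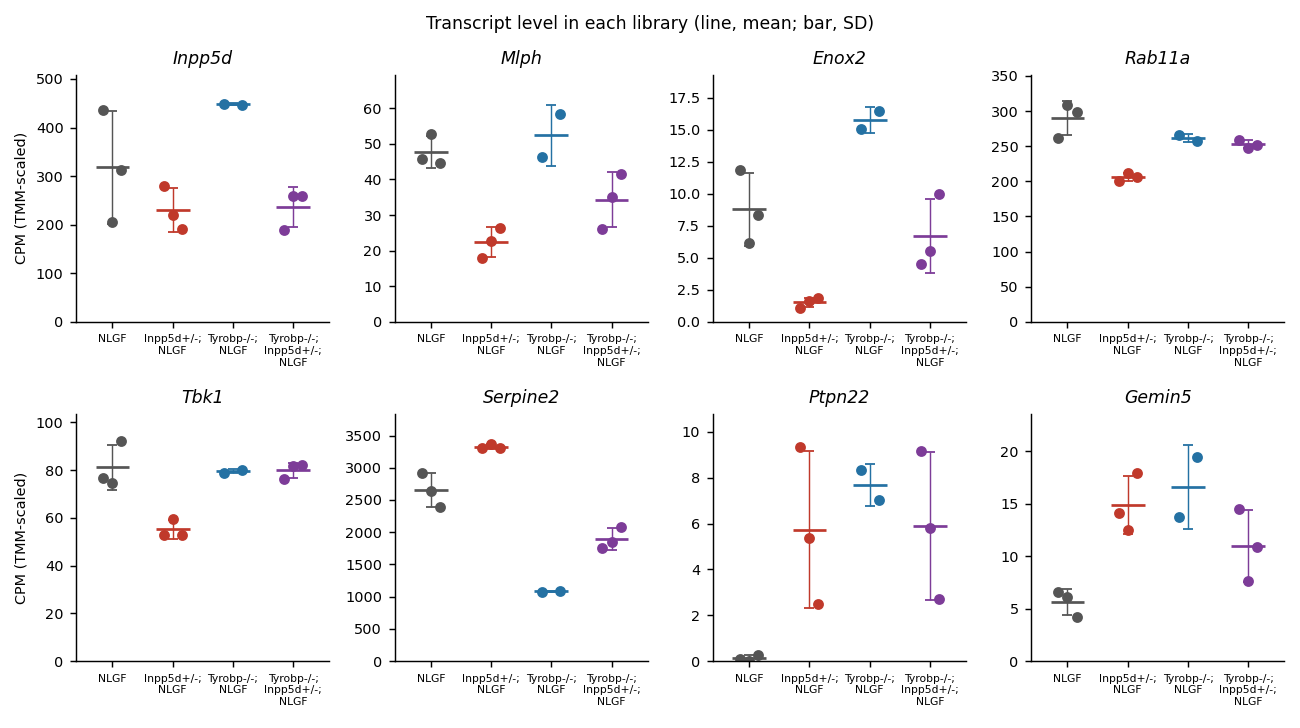
Level of Inpp5d and of 7 of the genes with the smallest p in TMM-scaled CPM (y axis, starting at 0) for each genotype (x axis); points are libraries, lines are means and bars are SD. Inpp5d overlaps between NLGF and Inpp5d+/-;NLGF, Mlph and Enox2 are low in Inpp5d+/-;NLGF, and Ptpn22 is near 0 in the NLGF libraries alone.

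No gene passed the test. In edgeR's quasi-likelihood test, 0 of 20390 genes (0%) had an adjusted p under 0.05. At an unadjusted p under 0.05 there were 951 genes (4.66%), 408 higher (2%) and 543 lower (2.66%) in the heterozygotes. limma-voom also called 0 genes at the adjusted threshold, with 868 at an unadjusted p under 0.05. DESeq2 called 30 of the 20009 genes it gave an adjusted p (0.15%), 13 higher and 17 lower. Of those 30, 7 had no count in any NLGF library, 10 had none in any heterozygous library, and 9 averaged at least 5 CPM in either group. The libraries of the groups did not overlap for 1553 genes (7.62%). Leaving out NLGF replicate 1 raised the number of genes at an unadjusted p under 0.05 to 1667, still with 0 called.

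The size of the differences was small for most genes with adequate counts, and the limits on it depended on level. Among the 10395 genes with a mean of at least 5 CPM over the 6 libraries, the median absolute log2 fold change was 0.17, and 5% of genes lay below -0.48 and 5% above 0.51. Their median SE was 0.24, and the 95% interval reached 0.53 to either side, which is 1.44-fold. An observed difference of at least 1.25-fold was seen for 2424 of them (23.3%), of at least 1.5-fold for 673 (6.47%) and of at least 2-fold for 110 (1.06%). Of the 110, 60 were higher, 50 were lower and 54 did not overlap between groups, beside 8.27% of all genes of at least 5 CPM. The 110 were chosen for a large difference in these same libraries, which favours a lack of overlap. Over all tested genes, the whole interval lay within 2-fold either way for 8096 (39.7%), and for genes of at least 5 CPM it did so for 7606 (73.2%). For each of those 7606 genes taken singly, the interval bounded the difference between these groups of libraries to less than 2-fold either way. The intervals were not adjusted for the number of genes, so this bound does not hold jointly over all 7606.

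The bound tightened with level. Of 1685 genes over 100 CPM, 97.4% had an interval within 2-fold and 82% within 1.5-fold, and the median interval reached 1.23-fold. From 20 to 100 CPM these shares were 88.1% and 40.1% of 4674 genes, and from 5 to 20 CPM they were 45.7% and 7.71% of 4036 genes. Below 5 CPM little was bounded: 13.9% of 3513 genes from 1 to 5 CPM, and 2 of 6482 genes under 1 CPM, lay within 2-fold. Among the genes over 100 CPM, 90 (5.34%) had an unadjusted p under 0.05, beside 4.66% of all tested genes. Of the 90, 20 were higher and 70 lower in the heterozygotes, in a class whose median log2 fold change was -0.038.

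**Figure D2:**
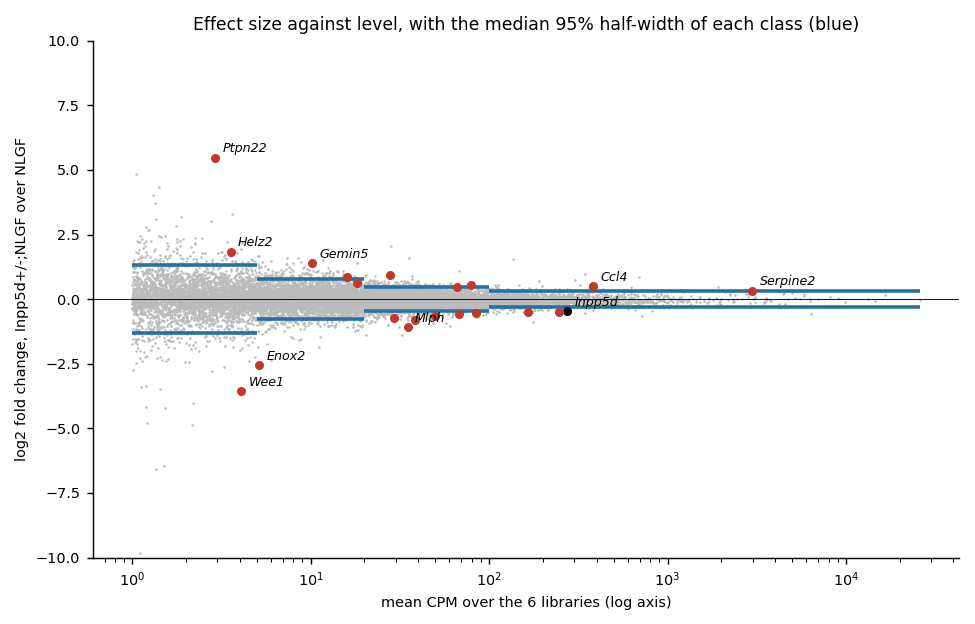
Log2 fold change of Inpp5d+/-;NLGF over NLGF (y axis) against mean CPM over the 6 libraries (x axis, log scale) for tested genes of at least 1 CPM; grey points are genes, blue lines the median half-width of the 95% interval in each class of level, red points the 20 ranked genes described in the text and the black point Inpp5d. The half-width falls from 1.31 at 1 to 5 CPM to 0.30 over 100 CPM.

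**Figure D3:**
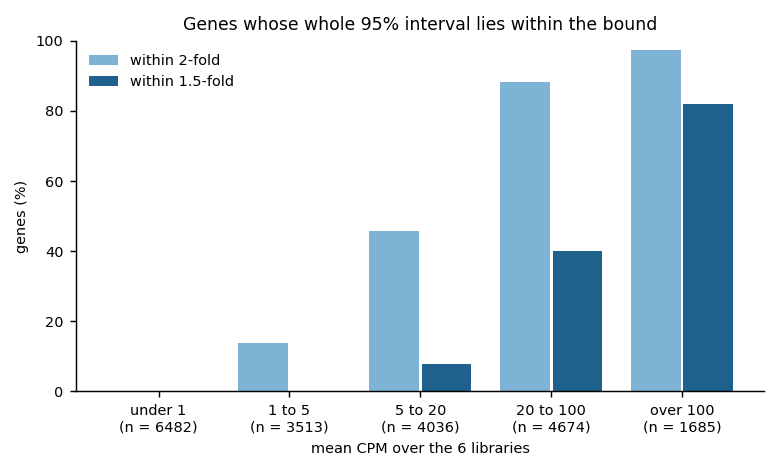
Share of genes (y axis, percent) whose whole 95% interval lies within 2-fold (light bars) or within 1.5-fold (dark bars), by mean CPM over the 6 libraries (x axis, with the number of genes). The share within 2-fold is 13.9% at 1 to 5 CPM and 97.4% over 100 CPM.

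Per direction, the 10 genes of smallest p were taken among those that averaged at least 5 CPM in a group and did not overlap. The lower ones were led by Enox2, Rab11a and Mlph. Enox2, a cell-surface NADH oxidase gene, was at 11.8, 6.11 and 8.35 CPM in NLGF and at 1.08, 1.61 and 1.81 CPM in the heterozygotes. All 3 heterozygous libraries lay below all NLGF libraries, a log2 fold change of -2.55 (SE 0.39) with an adjusted p of 0.878 in edgeR's test and 1.73e-06 in DESeq2. Rab11a encodes a small GTPase of recycling endosomes. It was at 262, 309 and 298 CPM in NLGF and at 201, 211 and 207 CPM in the heterozygotes, a log2 fold change of -0.49 (SE 0.08). Mlph encodes melanophilin, which links Rab27 to a myosin motor. It was at 45.6, 52.8 and 44.5 CPM in NLGF and at 17.9, 22.8 and 26.4 CPM in the heterozygotes, a log2 fold change of -1.09 (SE 0.21). Tbk1, a kinase of innate immune signalling, was at 76.8, 74.7 and 92.1 CPM in NLGF and at 52.9, 59.7 and 52.7 CPM in the heterozygotes, a log2 fold change of -0.56 (SE 0.11).

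The other lower genes were Grap, Dnajb9, Zranb2, Tspan5, Elp2 and Wee1. Grap, an adaptor related to GRB2, had a log2 fold change of -0.72 (SE 0.16), and Dnajb9, a co-chaperone of the endoplasmic reticulum, one of -0.51 (SE 0.11). The values for Zranb2, an RNA-binding zinc finger gene, Tspan5, a tetraspanin gene, and Elp2, a subunit of the Elongator complex, were -0.66, -0.81 and -0.53. Wee1, a kinase that inhibits CDK1, was at 9.17, 7.64 and 5.81 CPM in NLGF and at 0.94, 0.0804 and 0.893 CPM in the heterozygotes, from 1166 and 81 reads in all. In edgeR's test none of the 10 lower genes reached an adjusted p under 0.05, while DESeq2 called Enox2, Rab11a, Mlph, Tbk1, Grap, Dnajb9 and Wee1. For Tspan5 and Dnajb9 the NLGF libraries were the high ones among all 11, and for the rest of the 10 they were not. Tspan5 was at 49.5, 54.9 and 42.2 CPM in NLGF and at 19.6 and 20.6 CPM in Tyrobp-/-;NLGF.

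Among genes higher in the heterozygotes, Ptpn22 had the smallest p. It encodes a tyrosine phosphatase that restrains antigen receptor signalling in lymphocytes and is also expressed in myeloid cells. Ptpn22 was at 0.0962, 0 and 0.255 CPM in NLGF (6, 0 and 16 reads) and at 9.34, 5.37 and 2.51 CPM in the heterozygotes (457, 267 and 87 reads), a fitted log2 fold change of 5.47 (SE 0.93) with a 95% interval of 3.40 to 7.54. The level was 8.32 and 7.03 CPM in Tyrobp-/-;NLGF, which has both copies of Inpp5d, so the NLGF libraries were the low ones among all 11. The Tyrobp-/-;NLGF libraries also had higher sums of markers of other blood cells. Summed CPM of 14 neutrophil markers was 19600 and 4740 there, against 364 to 479 in NLGF. That of 16 monocyte markers was 2350 and 647, against 26.9 to 60.6. The part of such cells in the Tyrobp-/-;NLGF levels quoted here and below was not tested. Gemin5, which encodes the snRNA-binding subunit of the SMN complex, was at 6.59, 6.07 and 4.22 CPM in NLGF and at 14.2, 12.5 and 17.9 CPM in the heterozygotes, a log2 fold change of 1.40 (SE 0.30). Its level in Tyrobp-/-;NLGF, 13.7 and 19.4 CPM, also lay above that of the NLGF libraries. Ptpn22 and Gemin5 had adjusted p values of 0.878 and 0.952 in edgeR's test and were called by DESeq2.

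The other 8 higher genes included Serpine2 and Ccl4. Serpine2, which encodes the secreted protease inhibitor nexin-1, was at 2919, 2646 and 2391 CPM in NLGF and at 3305, 3373 and 3309 CPM in the heterozygotes, a log2 fold change of 0.33 (SE 0.08) with an interval of 0.14 to 0.52. The chemokine gene Ccl4 was at 353, 327 and 267 CPM in NLGF and at 484, 387 and 473 CPM in the heterozygotes, a log2 fold change of 0.50 (SE 0.13). Map3k8, a kinase that activates ERK downstream of Toll-like receptors, had a log2 fold change of 0.92 (SE 0.26), and Stxbp2, a regulator of granule exocytosis, one of 0.48 (SE 0.12). For the nuclear receptor coregulator Rere, the helicase Helz2, the AT-hook gene Akna and the mitochondrial protein gene Maip1 the values were 0.85, 1.84, 0.55 and 0.63. The groups did not overlap for any of these genes, which the choice of the 20 required, and none of these 8 was called by edgeR or DESeq2. For Rere, Helz2, Akna, Maip1, Map3k8 and Ccl4 the NLGF libraries were also the low ones among all 11. For Stxbp2 and Serpine2 they were not. The means in NLGF and in Tyrobp-/-;NLGF, which has both copies of Inpp5d, were 11.5 and 27.2 CPM for Rere. For Akna they were 64.0 and 147.5 CPM, and for Maip1 14.2 and 25.7 CPM. For Map3k8 they were 19.3 and 33.6 CPM, for Helz2 1.56 and 3.36 CPM, and for Ccl4 316 and 417 CPM. The higher neutrophil and monocyte marker sums of Tyrobp-/-;NLGF, given above, limit these comparisons too. With each library left out in turn the log2 fold change ran from 4.93 to 6.57 for Ptpn22, from -2.75 to -2.27 for Enox2, from -1.23 to -0.95 for Mlph and from 0.27 to 0.40 for Serpine2.

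The same allele can be read in other libraries by comparing Tyrobp-/-;Inpp5d+/-;NLGF with Tyrobp-/-;NLGF, which shares no library with the present comparison. Of the 20 genes, 13 had the same sign there, against 50.4% of the 10712 genes of at least 5 CPM in a group. An unadjusted p under 0.05 with the same sign was found for 4 of the 20 (Enox2, Mlph, Serpine2 and Dnajb9) and with the opposite sign for 1 (Akna), where 4.22% of the 10712 genes had such a p in either direction. Both comparisons came from the same fit over 11 libraries, so each gene had 1 estimate of spread shared by both. Choosing the 20 by small p favours genes with a small spread, so 4.22% is not a matched baseline for them. The log2 fold changes in those other libraries were -1.24 for Enox2, -0.61 for Mlph, 0.81 for Serpine2 and -0.30 for Dnajb9. Serpine2 was at 1073 and 1089 CPM in Tyrobp-/-;NLGF and at 1751, 1854 and 2079 CPM in Tyrobp-/-;Inpp5d+/-;NLGF, so the heterozygous libraries were the higher ones on both backgrounds. For Akna the difference there was -0.38, opposite to the 0.55 seen with Tyrobp present.

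The intervals of Trem2, Tyrobp and App lay within 2-fold, while none of the 3 genes had an unadjusted p under 0.05. Trem2 was at 2004, 2510 and 2688 CPM in NLGF and at 1959, 2411 and 2336 CPM in the heterozygotes, a log2 fold change of -0.10 with an interval of -0.36 to 0.15. With a library left out, the Trem2 value ran from -0.217 (without NLGF replicate 1) to -0.00594 (without NLGF replicate 3). Tyrobp averaged 2194 ± 318 CPM in NLGF and 2145 ± 179 CPM in the heterozygotes (SD, n = 3 each), a log2 fold change of -0.03 with an interval of -0.68 to 0.61. That interval is wider than the median half-width of 0.30 for genes over 100 CPM, and it comes from a fit that includes the Tyrobp-/- libraries. With the spread taken from the 6 compared libraries alone it was -0.313 to 0.259. The Tyrobp value turned positive without NLGF replicate 3 (0.102) and without heterozygous replicate 1 (0.0318), and was -0.0947 without NLGF replicate 1. App, the knocked-in gene, was at 95.8, 77.4 and 77.6 CPM in NLGF and at 104, 68.6 and 108 CPM in the heterozygotes, a log2 fold change of 0.16 with an interval of -0.22 to 0.55. The App value ran from 0.0468 without heterozygous replicate 3 to 0.34 without heterozygous replicate 2, and was 0.273 without NLGF replicate 1. For all 3 genes the groups overlapped.

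Of 27 tested genes of DAM stage 2, the TREM2-dependent stage, 18 had a log2 fold change above 0 and 9 below, with a median of 0.07, beside a median of 0 over all tested genes. An unadjusted p under 0.05 was reached by 3 (11.1%), beside 4.66% of all tested genes. All 3 were higher, a direction in which 2% of all tested genes had such a p: Serpine2, Ccl4 and Ccl3, a second chemokine gene, whose log2 fold change was 0.38 (SE 0.17) and 0.12 without heterozygous replicate 3. The lysosomal glycoprotein gene Cd68 was at 2291, 1669 and 1711 CPM in NLGF and at 2290, 2193 and 2439 CPM in the heterozygotes, where only NLGF replicate 1 reached the heterozygous range. Its log2 fold change was 0.287, and 0.45 without that library. Intervals lay within 2-fold for 22 of the 27 genes (81.5%) and within 1.5-fold for 14. The median level of the list was 568 CPM, and among all genes over 100 CPM the share within 2-fold was 97.4%, so the list was less tightly bounded than genes of high level in general. Spp1, which encodes osteopontin and was named after its values were seen, as were Axl, Gpnmb and Clec7a below, was at 646, 502 and 500 CPM in NLGF and at 548, 613 and 601 CPM in the heterozygotes, with an interval of -0.35 to 0.54. Its log2 fold change of 0.097 was 0.231 without NLGF replicate 1 and 0.0365 without NLGF replicate 2. Clec7a, a receptor for fungal glucans and a DAM marker, was at 596, 986 and 1245 CPM in NLGF and at 574, 714 and 769 CPM in the heterozygotes, a log2 fold change of -0.46 with an interval of -1.12 to 0.20, and the fold change became -0.702 without NLGF replicate 1 and -0.198 without NLGF replicate 3. Its groups overlapped, and it had the lowest log2 fold change of the 27.

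Some DAM intervals were narrower when libraries outside the comparison were left out of the fit. Axl, a receptor tyrosine kinase for apoptotic cells, was at 640, 460 and 482 CPM in NLGF and at 503, 589 and 662 CPM in the heterozygotes, yet its interval reached from -1.15 to 1.45. Gpnmb, a lysosomal glycoprotein gene, was at 49.4, 50.6 and 43.1 CPM in NLGF and at 39.4, 56.3 and 60.7 CPM in the heterozygotes, with an interval of -1.29 to 1.54. Both genes are low and uneven in the Tyrobp-/- libraries, whose spread enters the fit over 4 groups. With the spread taken from the 6 compared libraries alone, the interval was -0.23 to 0.54 for Axl and -0.32 to 0.59 for Gpnmb, and 25 of the 27 genes lay within 2-fold. Other intervals were wider in that fit: that of Ccl3 was -0.0844 to 0.858, which includes 0. The log2 fold change of Axl, 0.149, was 0.314 without NLGF replicate 1 and 0.0469 without heterozygous replicate 3. That of Gpnmb, 0.129, was 0.296 without heterozygous replicate 1 and 0.00293 without heterozygous replicate 3.

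Homeostatic genes lay on both sides of 0 in nearly equal number. Of 35 tested, 17 lay above 0 and 18 below, with a median of -0.002 on the log2 scale, and the intervals of 33 lay within 2-fold and of 30 within 1.5-fold. With the 6 compared libraries alone, 32 of the 35 lay within 2-fold. At an unadjusted p under 0.05, 2 were lower and 2 higher, together 11.4% beside 4.66% of all tested genes. The ADP receptor gene P2ry12 was at 5640, 6011 and 7399 CPM in NLGF and at 4880, 4937 and 5479 CPM in the heterozygotes without overlap, a log2 fold change of -0.32 (SE 0.10) that was -0.184 without NLGF replicate 3. The lysophosphatidylserine receptor gene Gpr34 was at 5216, 7184 and 10210 CPM in NLGF and at 4579, 5116 and 5690 CPM in the heterozygotes, a log2 fold change of -0.56 (SE 0.21), with NLGF replicate 1 inside the heterozygous range. NLGF replicate 3 had the highest Gpr34 level of the 6, and without it the value was -0.265. On the higher side were the fractalkine receptor gene Cx3cr1 (0.23, SE 0.09) and Smad3, a transducer of TGF-beta signals (0.50, SE 0.19).

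**Figure D4:**
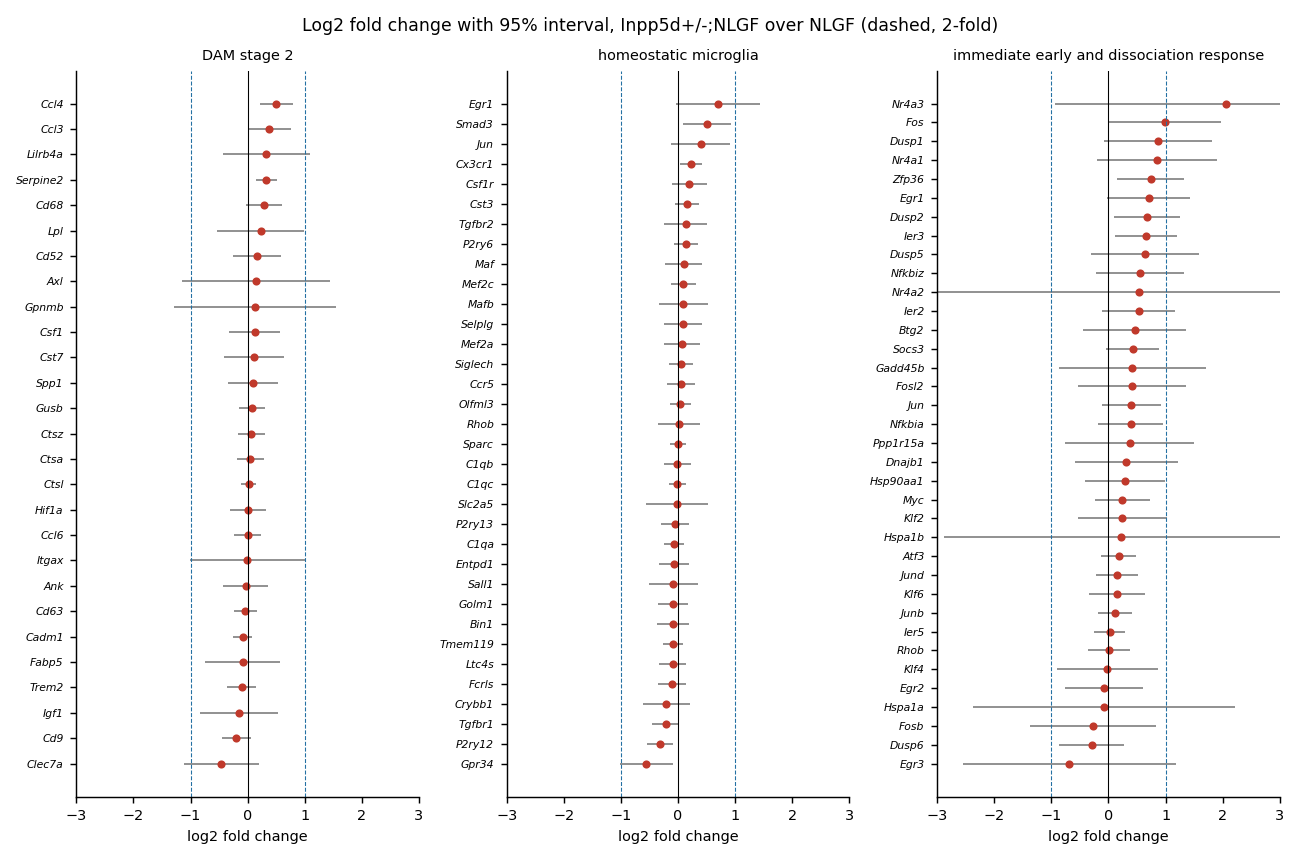
Log2 fold change of Inpp5d+/-;NLGF over NLGF (x axis; points) with its 95% interval (lines, drawn up to 3 either way) for the tested members of 3 gene lists, 1 per panel, ordered by fold change, with 1 homeostatic gene not drawn; dashed lines mark 2-fold. Intervals within 2-fold number 22 of 27 in DAM stage 2, 33 of 35 in homeostatic microglia and 14 of 36 in the immediate early and dissociation response.

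Genes around SHIP1 in its pathway were taken by role. Of 24 tested phosphoinositide phosphatases, Inpp5d included, 9 lay above 0 and 15 below (median -0.07). An unadjusted p under 0.05 was reached by 3 (12.5%), beside 4.66% of all tested genes. All 3 were lower, as were 2.66% of all tested genes at such a p: the myotubularins Mtmr2 (-0.37, SE 0.12) and Mtmr1 (-0.46, SE 0.20), and Sacm1l (-0.30, SE 0.13, and -0.196 without heterozygous replicate 1), a phosphatase of PI4P. Mtmr2 was at 66.6, 83.2 and 77.8 CPM in NLGF and at 57.3, 61.2 and 57.0 CPM in the heterozygotes, with no overlap. Inppl1, which encodes SHIP2, the paralog of SHIP1, was at 22.5, 20.3 and 24.2 CPM in NLGF and at 35.3, 23 and 28.7 CPM in the heterozygotes, a log2 fold change of 0.38 with an interval of -0.02 to 0.77 and overlapping groups. Without heterozygous replicate 1 the Inppl1 value was 0.212.

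The kinases upstream of SHIP1 and the effectors downstream of it had shares at an unadjusted p under 0.05 nearer to the 4.66% of all tested genes. Of 28 tested genes of PI3K, AKT and mTOR (median 0.10), 2 were lower at such a p (7.14%), Akt2 (-0.61, SE 0.25) and Phlpp1 (-1.71, SE 0.73), a phosphatase of AKT. The Akt2 value was -0.397 without NLGF replicate 2, and that of Phlpp1 was -0.801 without NLGF replicate 3. Of 32 SHIP1 partners and members of SYK signalling (median 0.03), 2 were higher (6.25%), the transcription factor gene Nfatc1 (0.35, SE 0.13) and the adaptor gene Dok1 (0.34, SE 0.15). Nfatc1 was at 83.2, 76.5 and 81.0 CPM in NLGF and at 95, 99.9 and 113 CPM in the heterozygotes, with no overlap. Lyn, a Src family kinase, was bounded between -0.11 and 0.34, and its log2 fold change ran from 0.0268 without NLGF replicate 2 to 0.187 without NLGF replicate 3. Among 20 target genes of FOXO factors, which AKT inhibits, 1 was higher (Bcl2l11, which encodes the death protein BIM, 0.29) and 1 lower (Ccng2, a cyclin gene, -0.24) at an unadjusted p under 0.05, together 10%.

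Receptors that recruit SHIP1 or SYK were also described by list. Of 22 ITIM and inhibitory receptors (median 0.05), 2 were lower at an unadjusted p under 0.05 (9.09%), beside 2.66% of all tested genes lower and 4.66% in either direction. Siglecf, a sialic acid receptor gene, was at 119, 108 and 163 CPM in NLGF and at 76.2, 94.5 and 93.2 CPM in the heterozygotes without overlap, a log2 fold change of -0.57 (SE 0.18). NLGF replicate 3 was the highest, and without it the Siglecf value was -0.364. Cd200r1, the receptor of the neuronal protein CD200, had a log2 fold change of -0.76 (SE 0.25), with overlap, and of -0.433 without NLGF replicate 3. The inhibitory Fc receptor gene Fcgr2b, through which SHIP1 is classically recruited, had a value of 0.24 and an interval of -0.02 to 0.51, and a value of 0.149 without NLGF replicate 2. Of 21 ITAM receptors and adaptors (median 0.20, and -0.06 without heterozygous replicate 3), 1 was higher (4.76%), Fcer1g, which encodes the Fc receptor gamma chain, at 2396, 1844 and 1963 CPM in NLGF and 2390, 2432 and 2379 CPM in the heterozygotes. NLGF replicate 1 lay within the heterozygous range of Fcer1g, whose log2 fold change of 0.215 was 0.335 without that library and 0.139 without NLGF replicate 2. Reads of the paired Siglec and Fc receptor families may be split among near-identical copies, so these values are uncertain.

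Programmes of phagocytes and metabolism had at most 2 genes a list at an unadjusted p under 0.05, which 4.66% of all tested genes had. Intervals lay within 2-fold for 97.4% of all genes over 100 CPM and for 88.1% from 20 to 100 CPM. The median level was 772 CPM for the lysosomal list, 114 CPM for oxidative phosphorylation, 237 CPM for ribosomal proteins and 28.8 CPM for the interferon response. Of 37 lysosomal genes (median 0.02), 34 lay within 2-fold, with Lamp2 lower (-0.24, SE 0.10, and -0.0925 without NLGF replicate 3) and Tfe3, a transcription factor of lysosome genes, higher (0.31, SE 0.13) at an unadjusted p under 0.05 (5.41%). All 36 genes of oxidative phosphorylation encoded in the nucleus lay within 2-fold (median -0.04), the lowest p belonging to Uqcrc1 of complex III (-0.30, SE 0.10). Ribosomal protein genes were below 0 for 62 of 79 with a median of -0.07 (0.002 without NLGF replicate 2), and 77 lay within 2-fold. Of 24 cholesterol synthesis genes (median 0.14), 1 (4.17%) had an unadjusted p under 0.05, the sterol sensor gene Insig1. It was at 40.4, 47.8 and 49.8 CPM in NLGF and at 55.1, 65.0 and 76.0 CPM in the heterozygotes without overlap (0.51, SE 0.21). The median was 0.12 for 18 phagocytic and scavenger receptors, -0.005 for 15 complement genes, -0.12 for 12 genes of MHC class II (0.04 without NLGF replicate 3) and -0.10 for 14 of MHC class I. It was 0.05 for 26 interferon response genes, of which 16 lay within 2-fold.

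Immediate early genes had the highest median of the 24 pathway lists. Of 36 tested, 30 lay above 0 (median 0.38), and 4 (11.1%) were higher at an unadjusted p under 0.05, namely Zfp36, Ier3, Dusp2 and Fos, beside 2% of all tested genes higher and 4.66% in either direction. Zfp36, which encodes an mRNA-decay factor, was at 306, 194 and 179 CPM in NLGF and at 450, 307 and 372 CPM in the heterozygotes, a log2 fold change of 0.74 (SE 0.26). Fos, an AP-1 subunit gene, was at 371, 207 and 118 CPM in NLGF and at 644, 384 and 351 CPM in the heterozygotes, a log2 fold change of 0.99 (SE 0.44), and of 1.51 without NLGF replicate 1. The value of Ier3, 0.657, was 0.324 without heterozygous replicate 3. Intervals lay within 2-fold for 14 of the 36 genes, and for 10 with the 6 compared libraries alone. This list moved more between libraries of NLGF than between the groups. Its mean log2 level relative to the NLGF mean was 0.55, -0.01 and -0.54 in NLGF and 0.55, 0.26 and 0.34 in the heterozygotes. The list median was 0.71 without NLGF replicate 1 and 0.14 without NLGF replicate 3. These genes respond to cell isolation, and the part of handling in the difference was not tested. Of 26 genes of inflammatory cytokines (median 0.15, and -0.03 without heterozygous replicate 3), Ccl4 and Ccl3 were higher and Casp1, the inflammatory caspase, lower (-0.39, SE 0.15) at an unadjusted p under 0.05, together 11.5%.

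**Figure D5:**
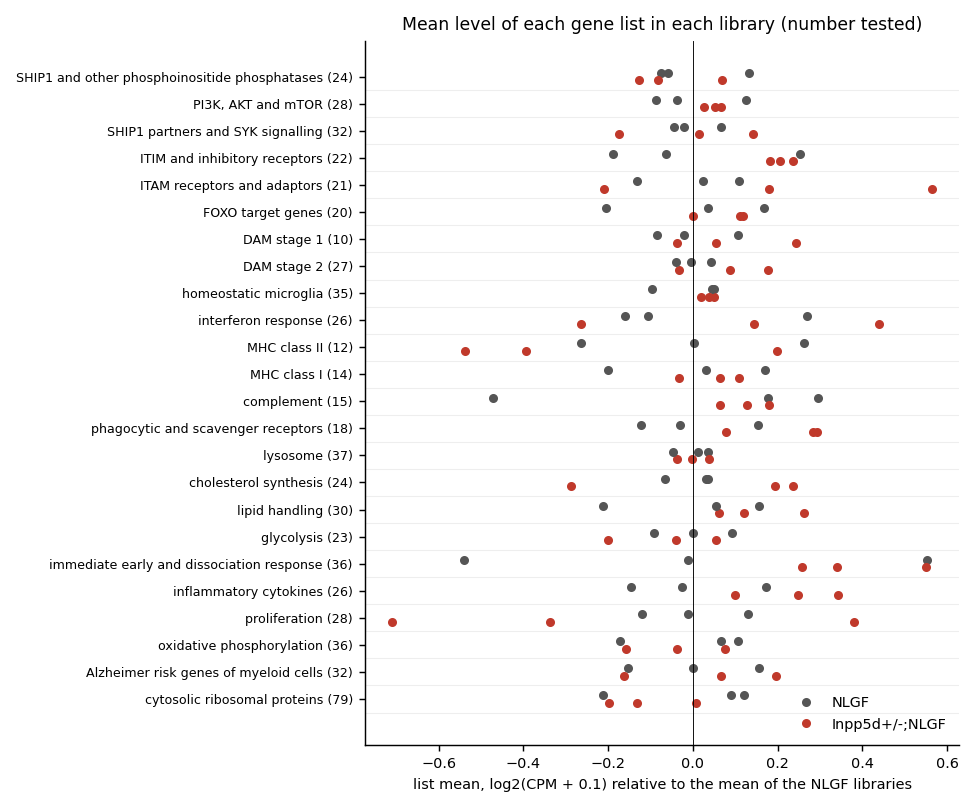
Mean level of each of the 24 pathway lists in each library, as log2(CPM + 0.1) relative to the mean of the NLGF libraries (x axis), with the number of tested genes beside each list (y axis); grey points are NLGF libraries and red points Inpp5d+/-;NLGF libraries. The groups overlap for every list, and the immediate early genes span -0.54 to 0.55 within NLGF.

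Markers of other cells that a CD45+ gate could admit were uneven between libraries. Summed CPM of 14 neutrophil markers was 364 to 479 in NLGF and 373 to 571 in the heterozygotes, and that of 16 monocyte markers 26.9 to 60.6 and 25.3 to 91. The mean log2 level of the neutrophil list, relative to the NLGF mean, was -2.32 in NLGF replicate 1 against 1.04 and 1.28 in the other NLGF libraries, and 0.92, -0.05 and 1.95 in the heterozygotes. That of the monocyte list was 2.23 in heterozygous replicate 3 and -0.50 to 0.30 in the other 5 libraries, and 13 of its 16 markers lay above 0 (median 1.17). For 12 markers of border-associated macrophages the ranges were 68.9 to 143 and 90.2 to 155, and for 17 lymphocyte markers 31.2 to 38.1 and 34.9 to 35.7, with Cd3e and Ms4a1 at 0 in all 6 libraries. The 10 dendritic cell markers, which include genes that microglia also express, summed to 932 to 1150 and 1020 to 1110. The 15 endothelial and mural markers were the only ones of 11 cell type lists whose sums did not overlap. They summed to 20.2 to 23.4 in NLGF and 25.9 to 37.4 in the heterozygotes, with Esam, Slco1a4 and Vtn at 0. On mean log2 level this list did overlap, at 0.06, -0.18 and 0.12 in NLGF and 0.34, -0.34 and 0.47 in the heterozygotes. Of its markers 8 were tested, at a median of 0.42 CPM, and 0 had an unadjusted p under 0.05. The part of these cells in the differences above was not tested. In bulk libraries, fewer cells of a type and less RNA per cell cannot be told apart.

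A last description, chosen after the values were seen, concerns neighbours of Inpp5d on chromosome 1, since Serpine2 and Mlph lie near it. Within 10 Mb either side, 193 genes other than Inpp5d were tested. Of these, 13 (6.74%) had an unadjusted p under 0.05, 5 higher and 8 lower, beside 4.66% of all tested genes, and 14 (7.25%) did not overlap, beside 7.62%. Of the 84 that averaged 5 CPM or more, 8 (9.52%) had such a p, of which 7 were lower and Serpine2 was higher, beside 4.87% of all genes at that level. Serpine2 lies at -7.83 Mb from the start of Inpp5d and Mlph at 3.29 Mb. These genes prompted the description and both are counted among the 13 and the 8, which favours higher shares. Within 2 Mb, 4 of 70 genes (5.71%) had such a p, but 0 of the 34 that averaged 5 CPM or more (0%). Several of the 34 are neighbouring Ugt1a genes with nearly the same log2 fold change, such as 0.105 for Ugt1a5 and 0.104 for Ugt1a2. They may not be separate measurements, so the counts of genes in all 3 windows overstate the number of independent ones. Within 5 Mb, 2 of 53 genes at that level (3.77%) had such a p, Mlph among them. In edgeR's test 0 genes of any of these windows had an adjusted p under 0.05. The strain that supplied the Inpp5d allele is not given in the sources used here, and the part of flanking sequence in these values was not tested.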

How the data were processed

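RNA from sorted brain microglia was extracted with the RNeasy Plus Micro kit and libraries were made with SMART-Seq v4, a full-length cDNA method without strand marking, per the labels' protocols. The submitters' processing notes name the tools STAR 2.7.3a and featureCounts 1.6.4 and, as builds, mm10 and GRCm38.p6. The authors deposited raw read counts per gene, without normalization. Not given in the sources used here were the annotation release, the strand setting and the treatment of reads with several positions, so overlapping, antisense and near-identical genes cannot be told apart.

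Groups come from the genotype label. Replicate numbers follow sample order and pair nothing. The labels do not say how libraries relate to animals, so p-values measure only the spread between these libraries. Low genes were removed by filterByExpr, with a minimum count of 10 and a minimum total of 15 over the 4 groups, and libraries were scaled by TMM. edgeR 4.0.16 (R 4.3.3) fitted 1 coefficient per group over 11 libraries with 7 residual degrees of freedom (quasi-likelihood), and the threshold was a Benjamini-Hochberg adjusted p of 0.05. SEs come from the F statistic and 95% intervals from the t distribution with up to 9.77 degrees of freedom. An interval within 2-fold means both bounds do. Intervals were not adjusted for the number of genes. Floors cover counting error only. The procedure was tested on simulated data.

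The genes named are Inpp5d, Tyrobp, Trem2 and App; per direction, the 10 smallest p with a group mean of at least 5 CPM, no overlap and a named symbol; genes called by DESeq2 under the same rule, up to 5 per direction; and from each of 35 lists up to 4 smallest p and 3 narrowest intervals, of which those that help a reader are printed. Some genes of these lists are not reported here singly and count only in the list totals. The members and lists were chosen with earlier results of these data known. Alternatives were RLE and upper-quartile scaling, other filters, DESeq2 1.42.0, limma-voom (limma 3.58.1), the compared groups alone, 1 surrogate variable (sva 3.50.0), a threshold of 0.1, a 99% interval and each library left out.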

Additional observations from a re-analysis of the deposited data

How the results depend on the processing

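The number of genes with an adjusted p under 0.05 was 0 under RLE and upper-quartile scaling, without and with a stricter filter, in limma-voom with and without quality weights, with the 2 compared groups only, with 1 surrogate variable, at a threshold of 0.1 and with each of the 11 libraries left out (0 to 0), and it was 30 in DESeq2, where the cause was not tested. The number at an unadjusted p under 0.05 was 951, against 582 of 17059 genes with the 2 compared groups only, 477 of 10491 with the stricter filter and 1667 without NLGF replicate 1. Some list members named above at such a p had intervals that included 0 with the 2 compared groups only. These were Ccl3, Cx3cr1, Mtmr1, Sacm1l, Akt2, Phlpp1, Dok1, Fcer1g, Bcl2l11, Lamp2, Tfe3, Casp1 and Fos. Those of Serpine2, Ccl4, P2ry12, Gpr34, Smad3, Mtmr2, Nfatc1, Siglecf, Cd200r1, Ccng2, Uqcrc1, Insig1, Zfp36, Ier3 and Dusp2 did not include 0. The Inpp5d log2 fold change ran from -0.70 to -0.17 with a library left out and was negative in every alternative run. Genes within 2-fold numbered 6774 to 8090 with a library left out, and 5742 with a 99% interval. The Tyrobp log2 fold change, -0.03, became 0.0029 with 1 surrogate variable and ran from -0.0947 to 0.102 with a library left out, where the cause was not tested. With a library left out, the medians of 16 of the 24 pathway lists crossed 0, so their signs rest on single libraries, while that of the immediate early genes ran from 0.14 to 0.71. The median of PI3K, AKT and mTOR was 0.22 without NLGF replicate 1 and 0.01 without NLGF replicate 2. No paired analysis was possible because the labels give no replicate numbers. With 3 libraries a group, a 2-fold effect could not be bounded for most genes under 20 CPM.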
